A study of Homo sapiens with 9 samples.

Results

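Mitochondrial ribosomal protein genes were followed in 9 RNA libraries of H2030, a cell line established from a human non-small cell lung cancer. Members are the 76 genes, of 29972 in the deposited table, whose symbol is MRPL or MRPS followed by a number and at most 1 letter. There are 47 MRPL and 29 MRPS symbols, and all 76 genes were tested. Cells received 20 nmol/L of siRNA with a lipid reagent, with 3 libraries for each of 3 preparations. These were a pool with no target (control), a custom-made mixture directed at ENAH exon 11a (siMENA11a) and a commercial pool directed at every ENAH isoform (siMENA). The ENAH product hMENA regulates actin filaments, and the series asks what loss of its isoforms does to lung cancer cells. Per the labels, the control and siMENA pools belong to different product lines of reagent. Every group received siRNA and lipid, so no untreated cells are among the libraries. Since nothing in the labels states that a group's libraries are from separate cultures, p-values here reflect only library-to-library spread, which may be technical.

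The mitochondrial ribosome, or mitoribosome, translates the few proteins encoded by mitochondrial DNA, all of them subunits of the respiratory chain and ATP synthase. Its RNAs are made inside the organelle, but every one of its proteins is encoded in the nucleus, made in the cytosol and imported. Many of these proteins descend from bacterial ribosomal proteins, and the others are additions found only in mitochondria. By their place in the human mitoribosome, 49 members belong to the large subunit, which joins amino acids, and 26 to the small subunit, which reads the mRNA. MRPS30 and MRPS18A sit in the large subunit despite their symbols. MRPS36 is not counted in either subunit here, since it is known to tether enzymes of the 2-oxoglutarate dehydrogenase complex.

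Levels are given as scaled TPM, the deposited per-length unit (transcripts per 1000000) divided by a size factor for each library. Sequencing depth is not kept in TPM and is unknown here, so values carry no counting interval. ENAH itself stood at 43.8 ± 0.77 scaled TPM (SD, n = 3) in control, 47.6 ± 1.01 in siMENA11a and 7.22 ± 0.306 in siMENA, a log2 fold change of -2.52 ± 0.04 (SE) for siMENA. Gene values hold all isoforms together, so this does not show whether transcripts with exon 11a fell. Keratin genes KRT8 and KRT18 were high (97.4 and 252.1 scaled TPM in control), while CDH1, PTPRC, PECAM1 and the lung lineage gene NKX2-1 were below 0.2 in every group mean. Of 7 epithelial markers 5 were tested, and they moved both ways. After siMENA11a 3 were called higher and 2 lower. After siMENA 1 was higher and 3 were lower, and 1 fell by at least 2-fold. The mean sum of the epithelial list was 395.5 for control libraries, 364.3 after siMENA11a and 345.8 after siMENA. Of 7 leukocyte markers 2 were high enough to be tested, CD68 and CD14, and both rose in siMENA11a and fell in siMENA. The summed scaled TPM of that list, nearly all of it CD68, lay between 97.4 and 105.0 in control libraries, between 125.4 and 131.2 in siMENA11a and between 41.1 and 49.5 in siMENA. Fibroblast markers summed to a mean of 9.02 in control, 8.08 in siMENA11a and 16.2 in siMENA, most of it COL1A1, and endothelial markers to 0.599, 0.567 and 1.10, most of it CDH5. The part of these shifts in the members' changes was not tested. In bulk RNA, fewer cells and less RNA per cell cannot be told apart.

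In control cells the 76 members spanned a 29.4-fold range per length, from 5.25 to 154.4 scaled TPM, with a median of 32.3. The median over all 13498 tested genes was 9.48, and 72 of the 76 members lay above it. MRPS24, which lines the path where mRNA enters the small subunit, was the highest at 154.4 ± 6.05 scaled TPM (SD, n = 3). It was followed by MRPL12, the protein of the flexible stalk that draws in translation factors, at 137.7 ± 4.61. MRPL51, MRPL33 and MRPS21 came next, at 102.2 ± 4.12, 86.1 ± 10.2 and 80.8 ± 5.52. At the other end stood MRPL30 (9.61 ± 0.308), MRPS25 (7.99 ± 1.06), MRPL22 (7.81 ± 0.498), MRPS14 (6.14 ± 0.491) and MRPS31 (5.25 ± 1.10). In the order of levels, 15 of the 75 neighbouring pairs were apart by more than the sum of their SDs, so most neighbours did not differ beyond their spread. The median coefficient of variation between libraries was 4.47% in control, 5.23% in siMENA11a and 4.97% in siMENA.

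**Figure D1:**
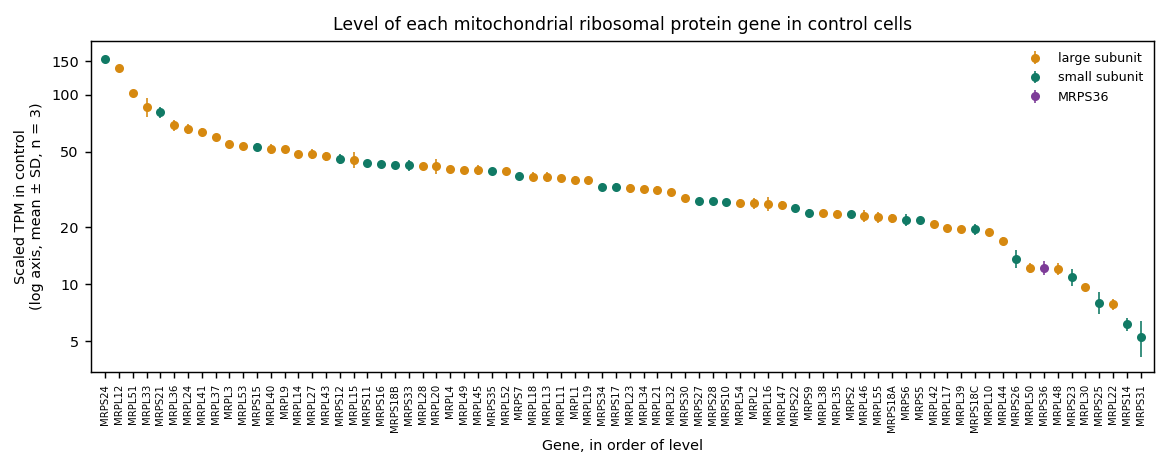
Level of each of the 76 members in control cells. Points are means of scaled TPM on a log axis and bars are SDs over 3 libraries, with genes ordered by level and coloured by subunit; MRPS24 and MRPL12 are the highest and MRPS31 the lowest.

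Summed over the 76 genes, scaled TPM was 2847 ± 38.1 (SD, n = 3) in control, 2385 ± 44.7 in siMENA11a and 2726 ± 27.0 in siMENA. The control libraries ran from 2812 to 2888, the siMENA11a libraries from 2333 to 2413 and the siMENA libraries from 2695 to 2745, so the 3 groups did not overlap. As a share of the TPM as deposited, the members held between 0.284% and 0.293% in control libraries, between 0.213% and 0.227% in siMENA11a and between 0.290% and 0.294% in siMENA. By that unscaled share siMENA overlapped with control, and siMENA11a lay below both.

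After siRNA against exon 11a, mitochondrial ribosomal protein mRNAs were mostly lower than in control. Of the 76 members, 42 fell (55.3%), 7 rose and 27 were not called, in limma's test adjusted by Benjamini and Hochberg over all tested genes at 0.05. Among all tested genes 27.7% fell, 27.9% rose and 55.6% were called in either direction, so the share of members called was near the background while their split leaned to falls. Every member had a mean of at least 5 scaled TPM, and of the 9018 genes reaching that level 34.4% fell and 30.6% rose. Tested among those 9018 genes, 44 members fell and 7 rose. The median log2 fold change was -0.17 over the members, with quartiles of -0.39 and 0.02. It was 0.01 over all tested genes and -0.01 over the 9018. Libraries of the 2 groups did not overlap for 51 members (67.1%), against 62.9% of all tested genes, so the members differ from the background in direction more than in how many were separated. Most of the changes were small, and only MRPL12 and MRPS10 fell by at least 2-fold.

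MRPL12 had the largest fall. It stood at 142.9, 136.1 and 134.1 scaled TPM in the 3 control libraries, 69.8, 62.3 and 57.2 in siMENA11a, and 135.0, 134.2 and 129.7 in siMENA. Every siMENA11a library lay below all 6 others, while siMENA overlapped with control. The log2 fold change was -1.12 ± 0.06 (SE, limma adjusted p = 7.4e-07) for siMENA11a and -0.05 ± 0.06 (adjusted p = 0.54) for siMENA. MRPS10, a protein of the head of the small subunit, was at 27.7, 26.8 and 27.1 scaled TPM in control, 12.6, 13.7 and 12.1 in siMENA11a, and 23.5, 24.4 and 25.4 in siMENA. Its siMENA11a libraries lay far below all others, and its siMENA libraries lay just below control. The log2 fold changes were -1.06 ± 0.05 (limma adjusted p = 2.7e-07) and -0.15 ± 0.05 (adjusted p = 0.03).

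MRPL15, a large subunit protein of bacterial descent, was at 48.7, 47.0 and 40.6 scaled TPM in control, 25.5, 24.8 and 22.5 in siMENA11a, and 38.3, 34.8 and 33.6 in siMENA. It fell in both knockdowns, by 0.89 and 0.35 on the log2 scale, and the 3 groups did not overlap. MRPS24 also fell in both, from 161.3, 149.8 and 152.2 scaled TPM in control to 96.8, 105.3 and 102.5 in siMENA11a and 118.8, 112.6 and 107.1 in siMENA. Its log2 fold changes were -0.60 ± 0.05 and -0.45 ± 0.05, so the member most abundant in control cells was among the clearest falls of either knockdown. MRPS25, a mitochondrial addition to the small subunit, fell by 0.62 ± 0.10 in siMENA11a, with 8.44, 6.78 and 8.75 scaled TPM in control against 4.89, 5.30 and 4.80. MRPL36, a short large subunit protein of bacterial descent, fell by 0.60 ± 0.06, from 73.6, 69.1 and 64.6 scaled TPM to 47.9, 46.0 and 42.6. For MRPS25 and MRPL36 the siMENA fold changes were 0.04 and -0.02, neither called.

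The stalk and its base did not move as a block. MRPL11, at the base of the stalk, fell by 0.54 ± 0.05 in siMENA11a, whereas MRPL10, which anchors MRPL12 to the ribosome, rose by 0.17 ± 0.05 (limma adjusted p = 0.019). MRPL10 stood at 18.5, 19.5 and 18.6 scaled TPM in control, 20.0, 22.9 and 21.0 in siMENA11a, and 21.6, 20.1 and 20.8 in siMENA. That rise did not pass the test with TPM as deposited (0.04, adjusted p = 0.65) or without control replicate 1 (adjusted p = 0.059), control replicate 3 (0.053) or siMENA11a replicate 2 (0.064). In the decoding centre, MRPS12 fell by 0.27 ± 0.06. MRPL3, near the site of peptide bond formation, fell by 0.15 ± 0.03, and MRPL41, a mitochondrial addition to the large subunit, by 0.45 ± 0.04.

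The largest rise was that of MRPL50, a mitochondrial addition to the large subunit. It was at 12.03, 13.1 and 11.6 scaled TPM in control, 17.5, 16.8 and 15.3 in siMENA11a, and 12.5, 13.6 and 12.3 in siMENA. Only the siMENA11a libraries stood apart, with a log2 fold change of 0.42 ± 0.06 (limma adjusted p = 0.00043). MRPL13 rose by 0.25 ± 0.07, MRPL30 by 0.23 ± 0.05, MRPL44 by 0.18 ± 0.04, MRPS28 by 0.17 ± 0.06 and MRPS35 by 0.10 ± 0.04. Of the 7 rises, 1 kept its call with TPM as deposited, that of MRPL50, and 4 were called without control replicate 1. The MRPS28 rise had an adjusted p of 0.0266 and was not called without control replicate 1 (0.093) or with any 1 siMENA11a library left out.

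**Figure D2:**
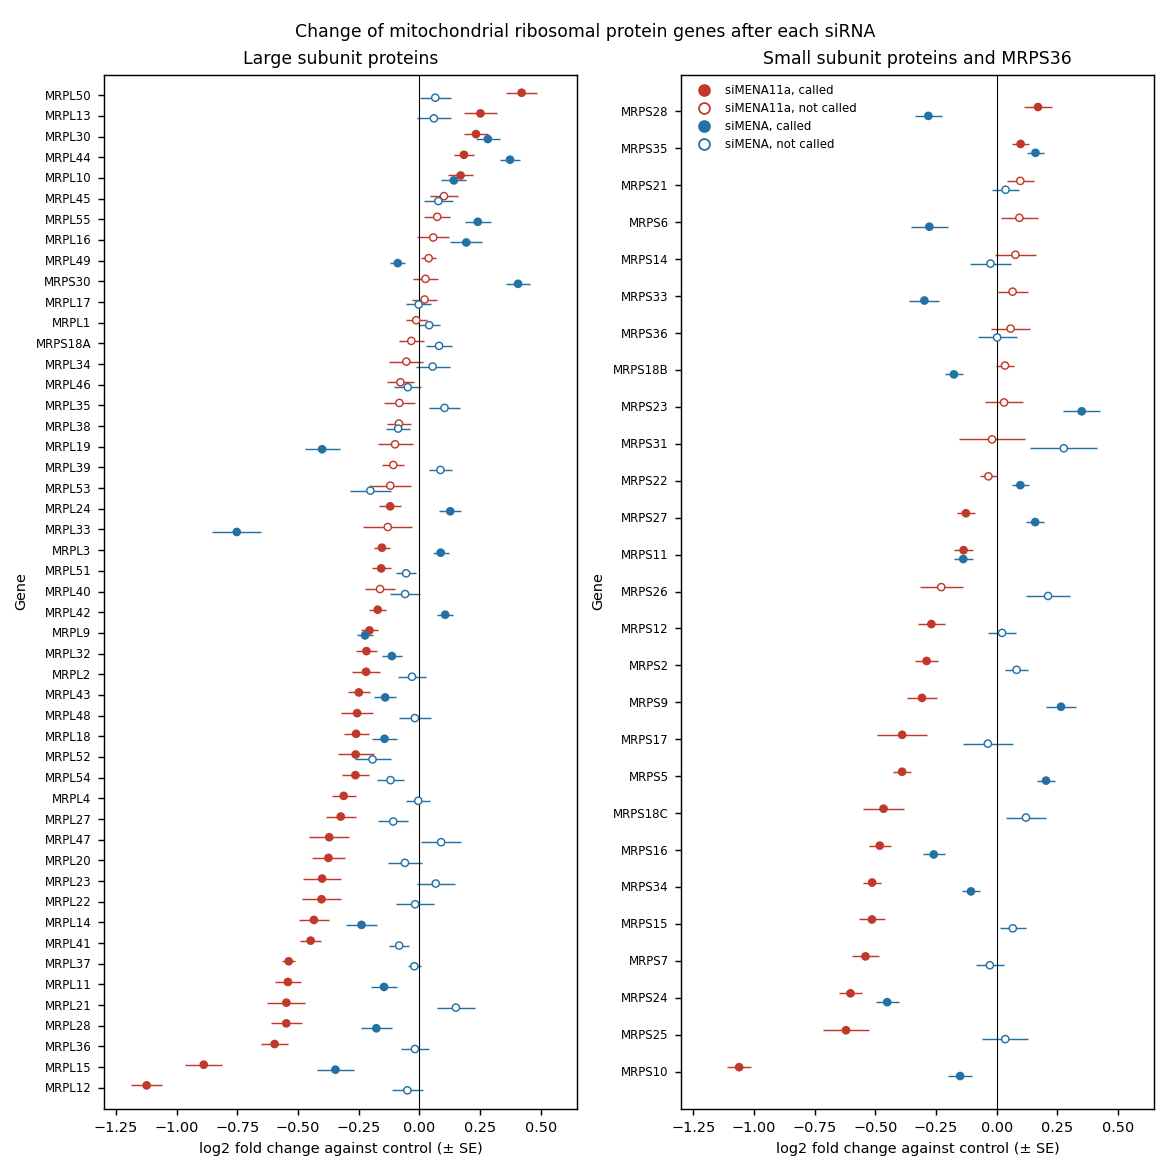
log2 fold change of each member against control (± SE of the limma fit), siMENA11a in red and siMENA in blue, with filled points for called genes and open points for genes not called. Most red points lie left of 0, down to MRPL12 and MRPS10, and the blue points lie on both sides of 0.

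Falls were seen in both subunits, to be read against the 27.7% of all tested genes that fell and the 27.9% that rose. Of genes with a mean of at least 5 scaled TPM, 34.4% fell and 30.6% rose. In siMENA11a, 27 of the 49 large subunit genes fell (55.1%) and 5 rose (median log2 fold change -0.16), and 15 of the 26 small subunit genes fell (57.7%) and 2 rose (median -0.25). Members with a bacterial counterpart fell in 19 of 30 cases in the large subunit (63.3%, median -0.22) and in 12 of 17 in the small subunit (70.6%, median -0.31). Of the mitochondrial additions, 8 of 19 fell in the large subunit (42.1%, median -0.12) and 3 of 9 in the small subunit (33.3%, median -0.03), the last share being near the background. Falls were thus more frequent, as a count, among proteins of bacterial descent, and no test of that difference was made. The paralogs of the MRPS18 family parted ways: MRPS18C fell by 0.47 ± 0.08, while MRPS18A (-0.03) and MRPS18B (0.03) were not called. With small and structured RNAs taken out before scaling, MRPS18B was called higher (0.12, adjusted p = 0.011), and with TPM as deposited MRPS18A was called lower (-0.16, adjusted p = 0.041). MRPS36, the one member outside the ribosome, was at 13.05, 12.5 and 11.05 scaled TPM in control, 13.8, 11.9 and 12.4 in siMENA11a, and 11.3, 13.2 and 12.1 in siMENA, and the groups overlapped.

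After the pool aimed at all isoforms, the members showed no common direction as scaled here. In siMENA 20 members fell (26.3%) and 15 rose (19.7%), with 41 not called, next to 25.8% and 23.7% of all tested genes, of which 49.4% were called in either direction. Of genes with a mean of at least 5 scaled TPM, 32.9% fell and 26% rose. Tested among those, 21 members fell and 15 rose. The median log2 fold change was -0.02 over the members, 0.01 over all tested genes and -0.02 over genes of that level. Libraries did not overlap for 35 members (46.1%), against 57.6% of all tested genes, and no member changed by 2-fold. Counts here rest on the scaling and on single libraries. The members called lower numbered 11 without control replicate 1 and 13 without siMENA replicate 3, and those called higher numbered 9 without siMENA replicate 3. Under each of the 3 other scalings rises outnumbered falls. Members higher and lower numbered 21 and 10 with TPM as deposited and 32 and 8 without small and structured RNAs. After quantile normalisation they numbered 22 and 9. Over all tested genes rises outnumbered falls there too, at 29.5% and 17.1% with TPM as deposited. Those shares were 36.1% and 15.8% without small and structured RNAs, and 26.2% and 22.5% after quantile normalisation.

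MRPL33, a large subunit protein of bacterial descent, had the largest fall in siMENA. It was at 96.6, 76.2 and 85.6 scaled TPM in control, 78.9, 75.2 and 80.9 in siMENA11a, and 44.1, 57.2 and 51.5 in siMENA. The control libraries were widely spread and overlapped with siMENA11a, and all 3 siMENA libraries lay below both groups. The log2 fold change was -0.75 ± 0.10 (limma adjusted p = 0.00022). MRPL19 fell by 0.40 ± 0.07, MRPS33 by 0.30 ± 0.06, MRPS28 by 0.28 ± 0.06, MRPS6 by 0.28 ± 0.08 and MRPS18B by 0.18 ± 0.04. The MRPS18B call did not pass the test under any of the 3 other scalings, where its adjusted p was 0.07 to 0.19. The fall of MRPL11 (-0.15, adjusted p = 0.048) did not pass under them either, nor with most single libraries left out.

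MRPS30 had the largest rise in siMENA, to 40.0, 37.4 and 35.9 scaled TPM from 28.0, 29.9 and 27.3 in control, while siMENA11a stood at 27.9, 28.7 and 30.1. Its log2 fold change was 0.41 ± 0.05 (limma adjusted p = 0.00016), and siMENA11a overlapped with control. MRPL44, a large subunit protein with a ribonuclease III fold, rose in both knockdowns. It was at 16.2, 17.7 and 16.9 scaled TPM in control, 18.5, 19.5 and 19.8 in siMENA11a, and 21.5, 22.1 and 22.5 in siMENA. The groups did not overlap and rose by 0.18 ± 0.04 and 0.37 ± 0.04. MRPS23 rose by 0.35 ± 0.08, MRPL30 by 0.28 ± 0.05, MRPS9 by 0.26 ± 0.06 and MRPL55 by 0.24 ± 0.05.

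**Figure D3:**
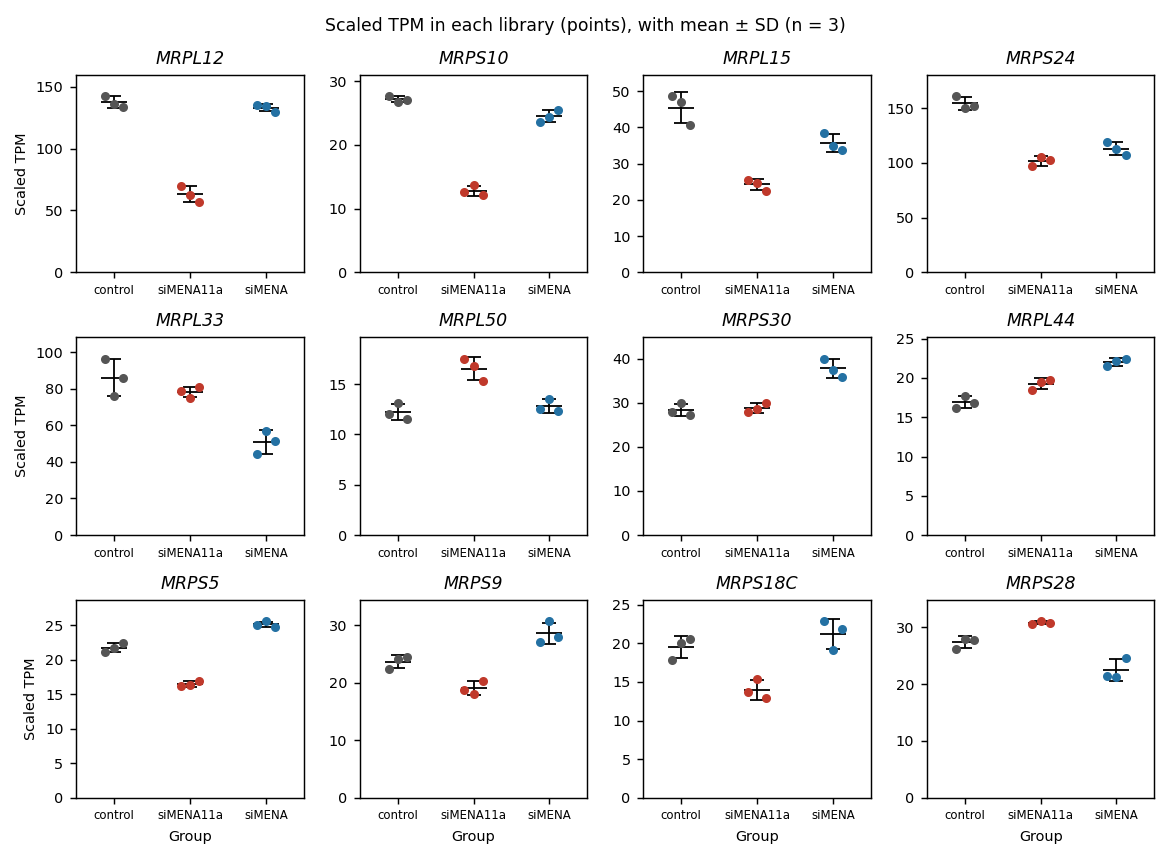
Scaled TPM of 12 members in each library (points), with the mean and SD of 3 libraries for control, siMENA11a and siMENA. MRPL12 is low only in siMENA11a and MRPL33 only in siMENA, MRPS10 is far lower in siMENA11a than in siMENA, MRPL50 is high in siMENA11a, MRPL15 and MRPS24 are low in both, and MRPS5 and MRPS9 lie below control in siMENA11a and above it in siMENA.

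The direct test between the knockdowns put most members lower in siMENA11a than in siMENA. Of the 76 members, 43 were lower (56.6%), 9 higher and 24 not called, beside 29.2% lower, 29.5% higher and 58.7% in either direction among all tested genes. Of genes with a mean of at least 5 scaled TPM, 34.1% were lower and 34.5% higher. Tested among those, 45 members were lower and 9 higher. The median log2 difference was -0.19 over the members and 0.00 over all tested genes. Libraries did not overlap for 54 members (71.1%), against 65.1% of all tested genes. The lowest in siMENA11a relative to siMENA were MRPL12 (-1.07 ± 0.06), MRPS10 (-0.91 ± 0.05), MRPL21 (-0.70 ± 0.08) and MRPS25 (-0.66 ± 0.10). The highest were MRPL33 (0.62 ± 0.10), MRPS28 (0.45 ± 0.06), MRPS6 (0.37 ± 0.08) and MRPS33 (0.36 ± 0.06). With TPM as deposited 2 of the 9 higher calls were kept, and the differences of MRPS6 (0.16, adjusted p = 0.066) and MRPS33 (0.15, adjusted p = 0.052) did not pass.

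Both comparisons with control share the same 3 control libraries, so their values are set side by side without a measure of likeness. Members lower in both numbered 13 as scaled here, or 17.1% of the 76, beside 11.7% of all tested genes. They were MRPL9, MRPL11, MRPL14, MRPL15, MRPL18, MRPL28, MRPL32, MRPL43, MRPS10, MRPS11, MRPS16, MRPS24 and MRPS34. In the direct test 8 of them were lower in siMENA11a than in siMENA. Their siMENA calls rest on the scaling. Of all 20 siMENA falls, 10 kept their call with TPM as deposited, 8 without small and structured RNAs and 9 after quantile normalisation. How many of the 13 kept both calls was not counted. Members called in siMENA11a as lower but not called in siMENA numbered 23, and 21 of these were lower in siMENA11a than in siMENA when compared directly. Members called lower in siMENA but not called in siMENA11a were MRPL19, MRPL33, MRPL49, MRPS6, MRPS18B and MRPS33. As scaled here the direct test called all 6 higher in siMENA11a. Members higher in both numbered 4, namely MRPL10, MRPL30, MRPL44 and MRPS35, and with TPM as deposited their siMENA11a calls were lost. The direct comparison reuses knockdown libraries by which these groups of members were picked, so its calls are not separate evidence. For the counts of 4, 6, 8, 21 and 23, no share over all tested genes was worked out, so they are not read as a trait of the members.

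A further 6 members fell in siMENA11a and rose in siMENA, 7.89% of the 76, where 4.44% of all tested genes did so. MRPS5, which shapes the mRNA channel of the small subunit, was at 21.2, 21.7 and 22.4 scaled TPM in control, 16.1, 16.4 and 16.9 in siMENA11a, and 25.02, 25.6 and 24.8 in siMENA. MRPS9, a head protein of the small subunit, was at 22.4, 24.2 and 24.5, then 18.7, 18.1 and 20.4, then 27.1, 30.7 and 28.0 scaled TPM in the same order. For these 2 genes control lay between the knockdowns with no overlap, and the direct differences were -0.59 ± 0.04 and -0.57 ± 0.06. MRPL3, MRPL24, MRPL42 and MRPS27 had the same pattern with changes against control of 0.09 to 0.17 in size. These small changes were fragile. Both MRPL24 calls against control ended with no filter (adjusted p = 0.063 and 0.059) and with control replicate 3 (0.11 and 0.064), siMENA11a replicate 2 (0.102 and 0.057) or any 1 siMENA library left out. The siMENA rise of MRPL3 (adjusted p = 0.0496) was lost with 7 of the 9 libraries left out in turn. The siMENA rise of MRPL42 was lost without control replicates 1 or 3 or siMENA replicates 2 or 3 (adjusted p from 0.060 to 0.099). Without small and structured RNAs the siMENA11a falls of MRPL3 (adjusted p = 0.081), MRPL24 (0.50), MRPL42 (0.058) and MRPS27 (0.36) were lost. The fall of MRPL24 also ended with quantile normalisation (0.26) and with only the 2 groups compared (0.073). It ended too without control replicate 1 (0.16) or siMENA11a replicate 3 (0.15), and the siMENA rise of MRPL24 without control replicate 2 (0.14). The siMENA11a fall of MRPS27 also ended with quantile normalisation (0.071), without control replicate 1 (0.063) and without siMENA11a replicate 2 (0.063). MRPS28 had the reverse pattern, with 26.1, 28.0 and 27.8 scaled TPM in control, 30.5, 31.0 and 30.8 in siMENA11a, and 21.4, 21.2 and 24.6 in siMENA.

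Across the 3 groups, limma's F test called 61 of the 76 members, and 73.2% of all tested genes. The 15 members not called were MRPL1, MRPL16, MRPL17, MRPL34, MRPL35, MRPL38, MRPL40, MRPL45, MRPL46, MRPL53, MRPS14, MRPS18A, MRPS21, MRPS31 and MRPS36. MRPS21 thus stayed among the highest members in every group, at 77.2, 78.05 and 87.2 scaled TPM in control, 88.1, 88.7 and 82.3 in siMENA11a, and 86.2, 78.1 and 84.2 in siMENA.

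The fall in siMENA11a was set beside other ribosomal and respiratory genes. List counts from here on are to be read against all tested genes, of which 27.7% fell and 27.9% rose in siMENA11a. In siMENA those shares were 25.8% and 23.7%. Of 77 genes for cytosolic ribosomal proteins, which make up the ribosome outside mitochondria, 20 fell (26%) and 13 rose (16.9%), with a median log2 fold change of 0.01. Of 76 nuclear genes for respiratory chain subunits, partners of the proteins that mitoribosomes make, 28 fell (36.8%) and 11 rose (14.5%), with a median of -0.07. The members' median of -0.17 was the lowest of the 3 lists. In siMENA the medians were -0.02 for mitochondrial ribosomal, -0.02 for cytosolic ribosomal and 0.04 for respiratory chain genes.

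**Figure D4:**
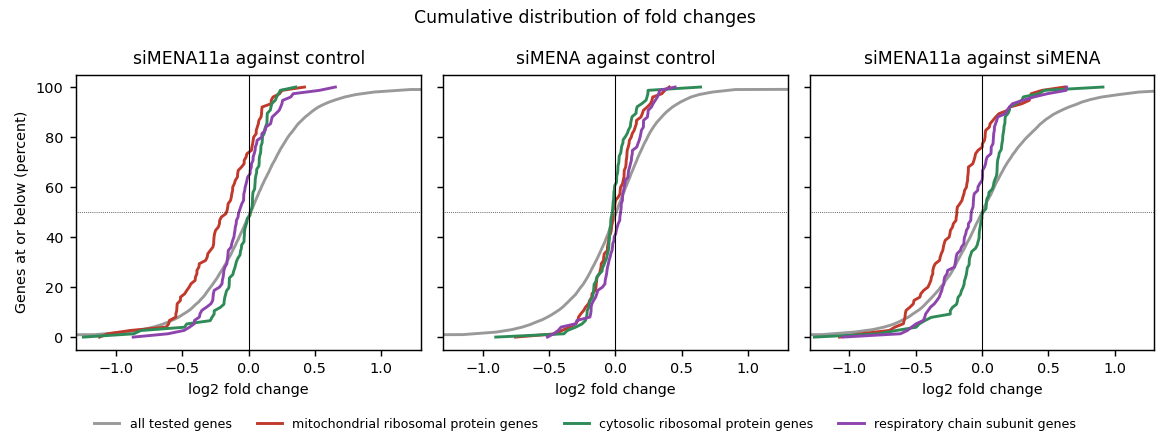
Cumulative percent of genes at or below a given log2 fold change (x axis, limited to values within 1.3 of 0) for all 13498 tested genes, 76 mitochondrial ribosomal protein genes, 77 cytosolic ribosomal protein genes and 76 respiratory chain subunit genes. The red curve of the mitochondrial ribosomal protein genes crosses 50% at -0.17, -0.02 and -0.19 in the 3 comparisons.

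Most genes that complete the mitoribosome under other symbols fell in siMENA11a. Of 8 such genes, 6 fell (75%) and 0 rose in siMENA11a, and 4 fell (50%) and 1 rose (12.5%) in siMENA. GADD45GIP1, a large subunit protein near the exit of the peptide tunnel, fell by 0.45 ± 0.08 and AURKAIP1, a small subunit protein, by 0.36 ± 0.06 in siMENA11a. ICT1, a release factor that became part of the large subunit, fell by 0.29 ± 0.05 and 0.18 ± 0.05, and DAP3, a GTP-binding small subunit protein, by 0.11 ± 0.04 and 0.13 ± 0.04. PTCD3, an RNA-binding small subunit protein, fell by 0.17 ± 0.04 in siMENA11a and rose by 0.12 ± 0.04 in siMENA, and CHCHD1 fell by 0.25 ± 0.07 in siMENA with 0.08 in siMENA11a.

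Genes that build or serve the mitoribosome were more mixed. Of 27 assembly and ribosomal RNA maturation genes, 9 fell (33.3%) and 3 rose (11.1%) in siMENA11a, and 3 fell (11.1%) and 7 rose (25.9%) in siMENA. NGRN, needed for the large ribosomal RNA of mitochondria, fell in both, from 104.7 ± 0.997 scaled TPM (SD, n = 3) to 88.2 ± 1.32 in siMENA11a and 63.1 ± 0.306 in siMENA. RNMTL1, a methyltransferase of that RNA, fell by 0.51 ± 0.09 in siMENA11a, DHX30 fell by 0.25 ± 0.04 there and rose by 0.14 ± 0.04 in siMENA, and DDX28 rose in both, by 0.43 ± 0.07 and 0.50 ± 0.07. Of 20 translation factors, 6 fell (30%) and 5 rose (25%) in siMENA11a, both near the shares of all tested genes. GATC, part of the enzyme that makes glutaminyl-tRNA in mitochondria, fell from 9.12 ± 0.517 to 3.67 ± 0.0763 scaled TPM in siMENA11a and stood at 8.60 ± 0.198 in siMENA. TACO1, an activator of cytochrome oxidase translation, fell by 0.57 ± 0.04, and MTFMT, which formylates the initiator tRNA, fell by 0.69 ± 0.08 in siMENA11a and rose by 0.56 ± 0.08 in siMENA. The mRNA-stabilising partners SLIRP and LRPPRC rose by 0.16 ± 0.04 and 0.32 ± 0.03 in siMENA, and SLIRP fell by 0.27 ± 0.04 in siMENA11a.

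Of 19 genes for enzymes that charge mitochondrial tRNAs, 7 fell (36.8%) and 3 rose (15.8%) in siMENA11a, and 3 fell (15.8%) and 7 rose (36.8%) in siMENA. KARS, which serves both cytosol and mitochondria, fell from 132.5 ± 3.24 to 80.4 ± 3.18 scaled TPM in siMENA11a, and GARS, which also serves both, rose by 0.37 ± 0.05. Of 23 genes for mitochondrial transcription, replication and RNA processing, 7 fell (30.4%) and 5 rose (21.7%) in siMENA11a. In siMENA 3 of them fell (13%) and 10 rose (43.5%). SSBP1, which coats single-stranded mitochondrial DNA, had the largest fall among them, from 42.5 ± 1.78 to 21.3 ± 4.07 scaled TPM, with 52.4 ± 2.08 in siMENA. TFAM, which packs mitochondrial DNA and starts its transcription, fell in both, by 0.34 ± 0.04 and 0.17 ± 0.04. TFB2M fell by 0.52 ± 0.07 in siMENA11a and rose by 0.39 ± 0.07 in siMENA, and POLRMT, the mitochondrial RNA polymerase, rose by 0.32 ± 0.05 in siMENA with -0.03 in siMENA11a. Of 11 chaperones, proteases and regulators of the mitochondrial unfolded protein response, 6 fell (54.5%) and 3 rose (27.3%) in siMENA11a. HSPE1 fell by 0.69 ± 0.07 there, and its partner HSPD1 by 0.29 ± 0.04 in siMENA11a and 0.69 ± 0.04 in siMENA.

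**Figure D5:**
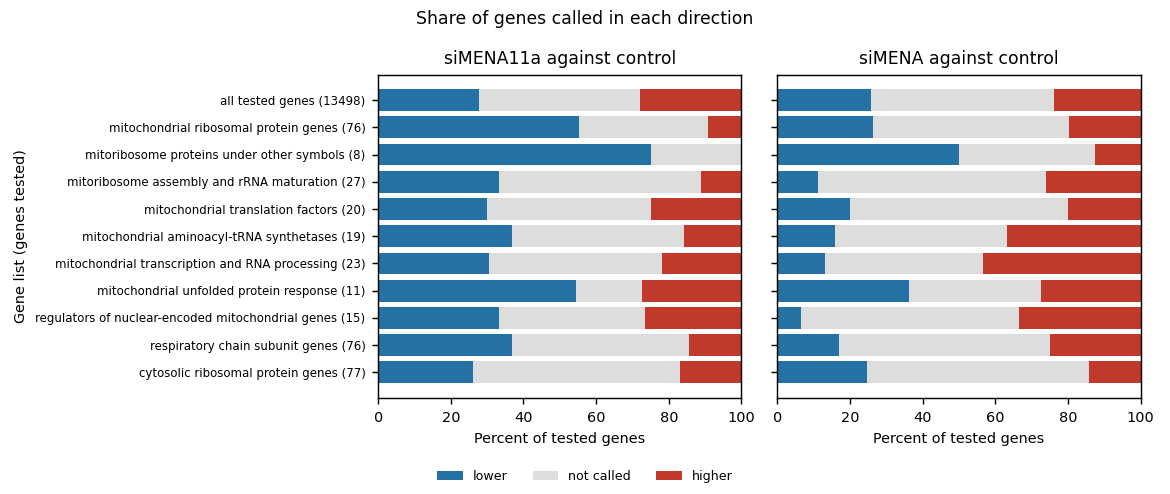
Percent of the tested genes of each list called lower (blue), higher (red) or not called (grey) against control, with the number of genes tested in brackets. In siMENA11a 55.3% of the mitochondrial ribosomal protein genes are in blue, against 27.7% of all tested genes, and in siMENA 26.3% against 25.8%.

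Among 15 tested regulators of nuclear genes for mitochondria, 5 fell (33.3%) and 4 rose (26.7%) in siMENA11a, and 1 fell (6.67%) and 5 rose (33.3%) in siMENA. GABPA, an ETS factor that binds promoters of such genes, fell from 8.24 ± 0.246 to 6.00 ± 0.295 scaled TPM in siMENA11a and stood at 8.26 ± 0.409 in siMENA. NRF1, nuclear respiratory factor 1, fell from 4.80 ± 0.502 to 3.57 ± 0.251 scaled TPM (limma adjusted p = 0.005) and was at 4.98 ± 0.434 in siMENA. MYC rose in both, by 0.35 ± 0.03 and 0.46 ± 0.03, ATF4 rose by 0.32 ± 0.04 in siMENA11a and fell by 0.58 ± 0.04 in siMENA, and YY1 (0.05 and 0.06) was not called. PPARGC1A was too low to be tested. The part of these genes in the members' changes was not tested.

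Proliferation genes were lower than control in both knockdowns. All 10 of the list, such as MKI67 and TOP2A, fell in siMENA11a, and 9 fell in siMENA, against 27.7% and 25.8% of all tested genes. Their summed scaled TPM lay between 970.2 and 1002 in control, between 656.6 and 689.6 in siMENA11a and between 729.5 and 762.2 in siMENA. Their part in the members' fall was not tested.

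Scaling bears on these counts. Small and structured RNAs, most of them RN7SL of the signal recognition particle, took between 57.5% and 59.4% of TPM in control, between 63.2% and 65.4% in siMENA11a and between 59.0% and 60.6% in siMENA. With TPM as deposited the median of all tested genes moved to -0.11 in siMENA11a, and 53 members were called lower and 1 higher. Of all tested genes 36.4% were then lower and 14.6% higher. With those RNAs taken out the median moved to 0.10, and 35 members were lower and 13 higher. Of all tested genes 19.7% were then lower and 34.9% higher. Falls made up 98.1% of the members' calls as deposited and 72.9% with those RNAs taken out, against 85.7% as scaled here. Relative to the median of all genes, the members' median in siMENA11a was -0.18, -0.19 and -0.18 under these 3 scalings and -0.13 after quantile normalisation. Each of the 3 scalings divides a library by 1 constant, which moves members and all genes nearly alike. Their likeness was therefore all but fixed in advance, and only quantile normalisation could change this value much. In siMENA the share of falls among the members' calls was 57.1% as scaled here and 32.3% with TPM as deposited. It was 20% without small and structured RNAs and 29% after quantile normalisation, so the balance of rises and falls turned there. The balance over all tested genes turned too, from 25.8% lower and 23.7% higher as scaled here. Those shares became 17.1% and 29.5% as deposited, 15.8% and 36.1% without those RNAs, and 22.5% and 26.2% after quantile normalisation.

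RefSeq promoter windows on GRCh38.p14, from 250 bases before to 50 after the start, were found for 67 of the 76 members. The ETS core CCGGAAG, on either strand, was in 29 of them (43.3%), in 22.5% of the 9462 tested genes with a window and in 10.3% of all 35116 windows. The YY1 core AAGATGGC was in 21 (31.3%), against 6.65% and 2.89%. The NRF1 core, a palindrome-like GC-rich motif searched with 1 free base, was in 8 (11.9%, against 13.7% of tested genes), the E-box CACGTG in 9 (13.4%, against 12.6%), CCAAT in 23 (34.3%, against 43.4%) and TATAAA in 3 (4.48%, against 8.04%). The ETS and YY1 cores can share the bases AAG where they adjoin. Of the members, 8 had both cores, 42 at least 1 and 25 neither.

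The ETS core was in 16 of the 38 fallen members with a window (42.1%) and in 13 of the 29 others (44.8%), and the YY1 core in 13 (34.2%) and 8 (27.6%), a description with no test. Windows of 4 members are shown, the pair with the largest falls in siMENA11a, the largest rise there and the largest fall in siMENA, with ETS and YY1 cores in capitals. They lie at chr17:81703117-81703416 on the + strand (MRPL12), chr6:42217812-42218111 on the - strand (MRPS10), chr9:101398569-101398868 on the - strand (MRPL50) and chr2:27771469-27771768 on the + strand (MRPL33). MRPL12 has neither core. MRPS10 has an ETS core 22 bases before the start and a YY1 core from base 9 after it, MRPL50 has a YY1 core from base 23 after the start, and MRPL33 has an ETS core 8 bases before it. A match describes letters only, and no binding was measured.
MRPL12: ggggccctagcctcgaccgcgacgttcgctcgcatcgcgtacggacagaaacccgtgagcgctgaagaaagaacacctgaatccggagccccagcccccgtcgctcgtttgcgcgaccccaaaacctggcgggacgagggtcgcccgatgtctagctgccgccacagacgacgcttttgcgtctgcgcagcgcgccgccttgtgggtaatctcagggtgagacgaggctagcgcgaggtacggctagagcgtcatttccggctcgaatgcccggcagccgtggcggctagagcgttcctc
MRPS10: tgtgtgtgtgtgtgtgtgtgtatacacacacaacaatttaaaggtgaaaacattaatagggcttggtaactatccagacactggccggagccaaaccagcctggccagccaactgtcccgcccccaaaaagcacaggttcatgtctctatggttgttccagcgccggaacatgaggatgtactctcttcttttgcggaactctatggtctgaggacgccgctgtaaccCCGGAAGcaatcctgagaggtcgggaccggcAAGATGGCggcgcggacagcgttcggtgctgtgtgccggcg
MRPL50: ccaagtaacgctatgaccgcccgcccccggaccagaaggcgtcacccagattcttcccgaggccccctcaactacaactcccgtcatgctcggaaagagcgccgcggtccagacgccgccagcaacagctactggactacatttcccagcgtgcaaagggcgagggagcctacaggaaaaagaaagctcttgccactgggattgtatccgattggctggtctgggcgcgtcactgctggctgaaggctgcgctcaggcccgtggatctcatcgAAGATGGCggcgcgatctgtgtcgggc
MRPL33: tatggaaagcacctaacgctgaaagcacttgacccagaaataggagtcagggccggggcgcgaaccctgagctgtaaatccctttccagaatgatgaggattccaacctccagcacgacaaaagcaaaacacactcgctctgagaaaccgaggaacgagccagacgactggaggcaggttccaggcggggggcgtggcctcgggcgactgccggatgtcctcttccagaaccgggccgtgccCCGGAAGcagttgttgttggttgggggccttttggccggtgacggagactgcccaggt

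An siRNA can also lower mRNAs that match its seed, so 3' UTRs of GENCODE 29 were searched for 7-base words. CAAGGAA and CCAAGGA lie in the 63-base exon of ENAH at chr1:225504991-225505053 (GRCh38), taken as exon 11a from its length. These words had been picked earlier because genes carrying them fell in these same libraries, so they support nothing about the members. Of the 76 members 7 carried a word (9.21%), against 25.8% of 11315 tested genes with a 3' UTR, and the members' UTRs were shorter (median of the longest 475 bases, against 1358). Among the 42 members that fell in siMENA11a 4 carried one (9.52%), namely MRPL15, MRPL21, MRPL43 and MRPS25, and among the other 34 members 3 did. MRPL12 and MRPS10, the largest falls, carried none. The sites of 3 carriers that fell are shown with the word in capitals, since they are the members' matches to the exon.
MRPL21: cctgcttcCCAAGGAga
MRPL43: ctagggaaCAAGGAAccagcagt
MRPS25: aaactcagCCAAGGAgacctgac

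Some members have near copies elsewhere in the genome. GENCODE 29 names 70 pseudogenes after 33 of the 76 members, among them MRPS10, MRPL50, MRPL15 and MRPS5, but not MRPL12, MRPL33, MRPS24, MRPS28 or MRPS30. How reads shared between a gene and its copies were counted is not given in the sources used here, so values of those 33 genes are less certain.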

How the data were processed

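RNA of H2030 cells was measured in 9 libraries, 3 in each of 3 groups taken from the sample titles. Per the labels' protocols, DNase-treated total RNA was depleted of ribosomal RNA, made into stranded libraries and sequenced as read pairs. The authors deposited TPM per gene with RefSeq transcript identifiers. GRCh37 and kallisto are named without a role or version, per the submitters' processing notes, and the deposited table's name points to RSEM. What aligned and counted the reads, and whether strand was used, is not given in the sources used here. All 9 value columns were used, and 0 pairs of libraries were identical.

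Deposited TPM was divided by a size factor per library (median of ratios, from 12341 genes above 0 in all libraries whose mean TPM reached 1). Genes whose mean scaled TPM reached 0.5, 13498 in all, were fitted on a log2 scale after adding 0.5, using limma 3.58.1 (R 4.3.3) with 3 group means, a mean trend, no block, and p-values adjusted over all genes by Benjamini and Hochberg. Fold changes on this scale understate changes of low genes. The fit was tried on simulated data with 100 genes changed by 0.5 and 100 by 1 on the log2 scale in siMENA11a. It called 71 and 94 of them, with 12 false calls. Smaller changes, such as most of the members', were not simulated. Far fewer genes were changed than were called in the data, so the trial does not show how the fit does here. Figures and sequence searches used Python 3.11.15.

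The members and gene lists were chosen with earlier results of these data known. Named with values are the 6 largest called rises and falls of each knockdown, the 4 highest and lowest of the direct comparison, members called in opposite directions, the 5 highest and lowest in control, 10 fixed members, and up to 4 called genes of each list with a few regulators. Members in lists of calls (such as MRPS21 and MRPS35) were named after their values were seen. Bacterial descent was read from the protein number, with MRPS24, MRPS28 and MRPL47 added by their known counterparts. Alternatives were other scalings, pseudocounts of 0.1 and 1, other filters, a robust fit, a replicate block, 2 groups at a time and each library left out.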

Additional observations from a re-analysis of the deposited data

How the results depend on the processing

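Counts of members called kept their side under both other pseudocounts, the filter at 5, no filter, the robust fit, the replicate block and the fits of 2 groups. With TPM as deposited, 1 member was called higher in siMENA11a, 10 lower in siMENA and 2 higher in siMENA11a against siMENA. Without small and structured RNAs, 13 were higher in siMENA11a, 32 higher in siMENA and 8 lower in siMENA, and quantile normalisation gave 9 lower in siMENA. Over all tested genes the shares called against control also shifted with these scalings, as given above. In the direct test with TPM as deposited, 15.1% of all tested genes were higher, against 29.5% as scaled here. The cause was not tested. The 42 falls in siMENA11a kept their call in 42, 35 and 39 cases under these 3 scalings, and the 20 falls in siMENA in 10, 8 and 9. With 1 library left out in turn, members lower and higher in siMENA11a numbered 39 to 44 and 4 to 7, those in siMENA 11 to 19 and 9 to 14, those of the direct test 39 to 45 and 8 to 9, and those of the F test 58 to 63.

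Signs turned for values that were not called. In siMENA11a they were MRPS30 (-0.11 as deposited, -0.0023 without control replicate 3, -0.0016 without siMENA11a replicate 3, and up to 0.0618 with another library left out), MRPS36 (-0.071 and -0.0096 for the first 2 of these, and up to 0.105), MRPS18A (0.051 without small and structured RNAs, 0.0057 without control replicate 1, and down to -0.0716) and MRPS18B (-0.098 as deposited). In siMENA they were MRPL12 (0.035, 0.072 and 0.070) and MRPL41 (0.000683, 0.038 and 0.031) under the 3 scalings in the order above, MRPS12 (-0.024 without control replicate 3, -0.019 without siMENA replicate 1) and MRPS36 (-0.065 without control replicate 3, -0.054 without siMENA replicate 2, and up to 0.0542).

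Libraries share replicate numbers across groups, but deviations of same-numbered libraries correlated at only -0.065 to 0.058 over 9 pairs. No shared effect of the number was seen, but this cannot show whether same-numbered libraries were prepared together. With the replicate block, 6 members were higher and 42 lower in siMENA11a, 13 and 15 in siMENA, and 8 and 45 in the direct comparison.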

Other observations

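Transcripts that share sequence or a locus with members were listed at 0 or had control means under 1 scaled TPM. MRPL23-AS1, antisense to MRPL23, was listed at 0 in every library. The pseudogenes MRPL42P5, MRPL45P2 and MRPS31P5 had control means of 0.87, 0.961 and 0.765 scaled TPM and were not called in either knockdown. URGCP-MRPS24, a read-through transcript that shares exons with MRPS24, had a control mean of 0.24 scaled TPM and was too low to be tested, while MRPS24 itself was the highest member.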
